A study of Homo sapiens with 4 samples.

Results

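The 10 genes described here belong to the BCL2 family, and some other genes of the family are given as a separate list further on. They were taken by gene symbol from 19749 rows of the deposited comparison, and all 10 had a row: the anti-apoptotic genes BCL2, BCL2L1, BCL2L2 and MCL1, the pore-forming effector BAK1, and the BH3-only genes BID, BIK, BMF, BCL2L11 and BAD. Of these, 9 had an adjusted p-value, as did 14812 genes in all; BIK, with few reads, did not. The cells were U87, an established human glioblastoma line grown in DMEM with serum. One group received 5 µM YZ129, a small molecule that the series title places in the HSP90, calcineurin and NFAT pathway, for 24 h (2 libraries). The other received the vehicle DMSO (2 libraries). The labels do not say whether the libraries of 1 group are separate cultures; the p-values may thus reflect technical spread alone.

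BCL2 family proteins decide whether the outer membrane of the mitochondrion stays closed. BAX and BAK1 can assemble into pores that let cytochrome c out and start the caspase cascade, and the anti-apoptotic members hold them back. BH3-only proteins answer stress or loss of growth signals: they occupy the groove of the anti-apoptotic members with a short helix called BH3, and some of them also activate BAX and BAK1 directly. In glioblastoma, BCL2L1 (the gene of BCL-XL) and MCL1 are well known as survival factors. All of these proteins are strongly controlled after transcription, by phosphorylation, cleavage or turnover, which RNA does not report.

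Changes of single genes are the authors' own, given as a log2 fold change ± standard error (SE), read as YZ129 over DMSO. The deposited table does not state which group is the numerator, and its name puts DMSO first, which would usually mean the opposite. The reading rests on 22 heat shock genes, chosen with their values known, since loss of HSP90 function is known to induce such genes. Of these, 11 passed with a positive change and 0 with a negative one in the authors' deposited table, where 5.24% of all tested genes passed as higher. The other 11 did not pass, among them HSP90AA1 (-0.04) and HSPB1 (-0.21), the 2 with a negative change. If the table runs the other way, each direction below is inverted, with the same sizes and p-values. Values per library were not analysed here. The table's mean level is in normalized reads. The 525 genes of lowest level took 36 distinct levels. All 36 equalled a sum of 2 out of 8 values within 1e-06, as 2 reads over 8 columns of counts would give. Over 4 columns 2 reads would give 10 levels. The mean thus appears to cover more columns of counts than the 4 libraries described. Whether these are further libraries or the described ones split into parts is not known, nor is their part in the SE.

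The BH3 stretch is what the family has in common, and it is shown first because the BH3-only genes are named for it. The 30 bases that encode its core were read from the GENCODE transcripts (release 29, GRCh38; exon numbers are those of the transcript used). The transcript used was the first tried that held a match to the pattern searched, and in each of the 10 genes it held exactly 1. The pattern was leucine or methionine, 3 free residues, a small residue, aspartate, an acidic or small residue or glutamine, and a hydrophobic residue. Capitals mark the first and the sixth codon.
BCL2L2 (chr14:23307903-23307932, plus strand, exon 3): ATGcgggcagctggaGATgagttcgagacc
MCL1 (chr1:150578865-150578894, minus strand, exon 1): TTAcgacgggttgggGATggcgtgcagcgc
BCL2L1 (chr20:31721922-31721951, minus strand, exon 2): CTGagggaggcaggcGACgagtttgaactg
BCL2 (chr18:63318349-63318378, minus strand, exon 2): CTCcgccaggccggcGACgacttctcccgc
BAK1 (chr6:33575387-33575416, minus strand, exon 4): CTCgccatcatcgggGACgacatcaaccga
BID (chr22:17739415-17739444, minus strand, exon 4): CTCgcccaggtcgggGACagcatggaccgt
BMF (chr15:40104195-40104224, minus strand, exon 4): CTTcagtgcattgcaGACcagttccaccgg
BCL2L11 (chr2:111150103-111150132, plus strand, exon 4): TTGcggcgtattggaGACgagtttaacgct
BAD (chr11:64271622-64271651, minus strand, exon 3): CTCcggaggatgagtGACgagtttgtggac
BIK (chr22:43127716-43127745, plus strand, exon 3): CTGgcctgcatcgggGACgagatggacgtg
The first codon encoded leucine in 9 genes and methionine in BCL2L2, the residues that the pattern allowed. The sixth encoded aspartate, as the pattern required, with one codon in 8 genes and the other in BCL2L2 and MCL1. Between pairs of genes 9 to 21 of the 30 bases were identical. BAK1 had 21 in common with BID and likewise with BIK, and BCL2L2 and BID, the most strongly raised and lowered members below, had 9.

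The family did not move as a block with YZ129. Of the 9 tested members 2 rose, BCL2L2 and BAK1, 2 fell, BID and MCL1, and 5 did not pass the authors' adjusted p of 0.05. Across all tested genes 12.9% passed, 5.24% higher and 7.64% lower. Of all 1908 calls 40.7% were rises. With changes centred on the median of all genes there were 1838 calls, 51.9% of them rises. With centring on genes of like level there were 1724, 53.4% of them rises. The median change of the 9 members was -0.10, beside -0.05 for all tested genes. At an adjusted p under 0.01, which 7.72% of all genes passed (3.01% higher, 4.71% lower), BCL2L2 and BID were left. At 0.1, passed by 17.4% (7.26% higher, 10.2% lower), the same 4 members were called, and 0 members reached a log2 change of 1 in size, as 2.79% of all genes did with an adjusted p under 0.05. Calls fell on both sides of the family: 1 rise and 1 fall among the 4 anti-apoptotic genes, and 1 rise and 1 fall among the 5 tested pro-apoptotic ones. RNA was taken from the whole culture, so fewer cells with a transcript and less of it per cell cannot be told apart.

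**Figure D1:**
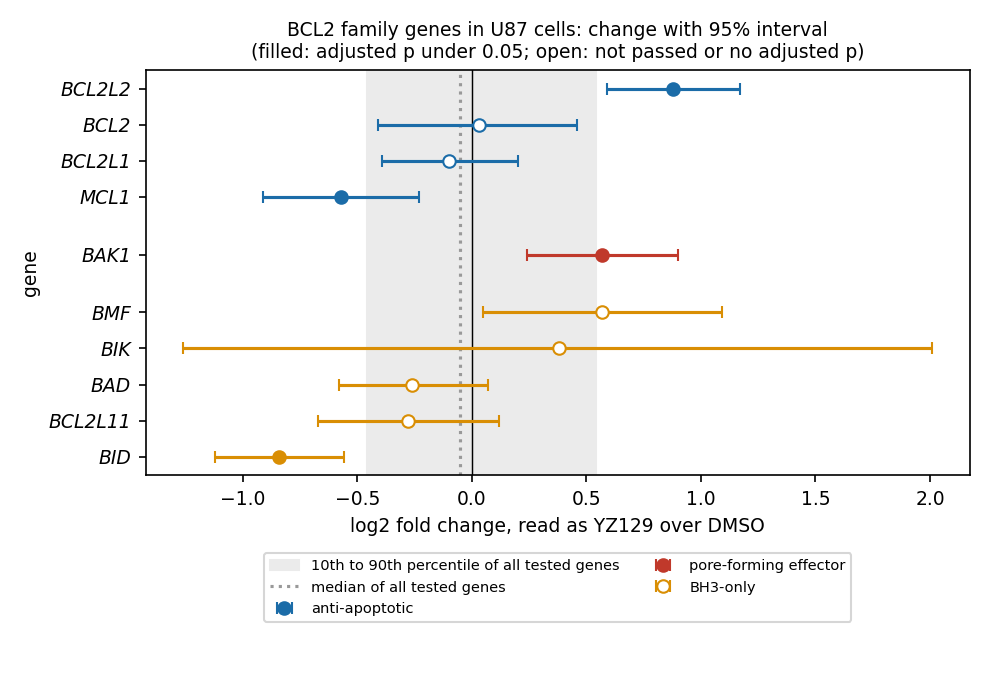
Log2 fold change of each of the 10 BCL2 family genes (x axis, read as YZ129 over DMSO) with its 95% interval from the authors' SE; filled points passed an adjusted p of 0.05, the grey band spans the middle of all tested genes and the dotted line is their median. BCL2L2 (0.88) and BAK1 (0.57) lie to the right, MCL1 (-0.57) and BID (-0.84) to the left, and the interval of BIK runs from -1.26 to 2.01.

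Among the anti-apoptotic genes BCL2L2 rose, MCL1 fell, and BCL2L1 and BCL2 did not pass. BCL2L2, which encodes BCL-W, was 1.84-fold higher in the authors' deposited table (0.88 ± 0.15, 95% interval 0.59 to 1.17, adjusted p = 2.13e-07). This change lay above that of 95.9% of all tested genes. It ranked as number 307 by size among the 776 rises. Its mean level in the authors' deposited table was 1169 normalized reads, and only 5.67% of genes of like level had a smaller SE.

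BCL2L2 sits next to PABPN1, a poly(A)-binding protein gene, and a read-through transcript joins them. The annotation gives the read-through gene 588 exonic bases in common with BCL2L2, 16.3% of its exon length, so reads there cannot be assigned to either alone. In the authors' deposited table the read-through gene BCL2L2-PABPN1 had a mean level of only 25.8 and a change of -0.10 ± 0.44, and PABPN1 itself 0.28 ± 0.17 (adjusted p = 0.311). The change of BCL2L2 exceeded that of PABPN1 by 0.59, with a 95% interval of 0.15 to 1.04.

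MCL1, a short-lived protein that holds BAK1 and BCL2L11 in check, was 1.48-fold lower in the authors' deposited table (-0.57 ± 0.17, 95% interval -0.91 to -0.23, adjusted p = 0.0109). Its mean level was 16356. Its SE was larger than that of 83.6% of genes of like level, whose median SE was 0.15. The tested genes with a level of at least 1000 had a median change of -0.11. With each change centred on the median of its level decile, MCL1 stood at -0.41 and no longer passed (adjusted p = 0.103; 0.00943 to 0.103 over the alternatives tried).

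BCL2L1, whose main product BCL-XL guards against BAX and BAK1, stood at -0.10 ± 0.15 in the authors' deposited table (95% interval -0.39 to 0.20, adjusted p = 0.741). Its mean level was 7922. BCL2, the founding member, stood at 0.03 ± 0.22 in the authors' deposited table (95% interval -0.41 to 0.46, adjusted p = 0.962) at a level of 196. The signs of these 2 genes turned when changes were centred on genes of like level (0.06 for BCL2L1 and -0.03 for BCL2). BCL2L2 exceeded BCL2L1 by 0.97 (95% interval 0.56 to 1.39), BCL2 by 0.85 (0.33 to 1.37) and MCL1 by 1.45 (1.00 to 1.89) on the log2 scale, taking the errors of the genes as independent.

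The effector BAK1, which sits in the outer membrane and oligomerizes once activated, was 1.48-fold higher in the authors' deposited table (0.57 ± 0.17, 95% interval 0.24 to 0.90, adjusted p = 0.0103). Its mean level was 744. Its close relative BAX stood at -0.07 ± 0.17 in the authors' deposited table (adjusted p = 0.844), and the change of BAK1 exceeded it by 0.64, with a 95% interval of 0.17 to 1.10.

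BID was the single BH3-only gene that passed, and it fell. BID links death receptors to mitochondria, since caspase-8 cuts it into the active form tBID. It was 1.79-fold lower in the authors' deposited table (-0.84 ± 0.14, 95% interval -1.12 to -0.56, adjusted p = 3.67e-07) at a mean level of 2246. Of all tested genes 2.29% had a lower value, and BID ranked as number 283 by size among the 1132 falls. Its change was below that of each other BH3-only gene tested. The difference was smallest to BCL2L11, which exceeded it by 0.57 (95% interval 0.08 to 1.05).

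The remaining BH3-only genes did not pass. BMF, known to be held at the cytoskeleton by a dynein light chain until released, had the same value as BAK1 in the authors' deposited table (0.57 ± 0.26, 95% interval 0.05 to 1.09) but an adjusted p of 0.148. Its mean level was 126 and its SE the widest of the 9. BCL2L11, the gene of BIM, stood at -0.28 ± 0.20 (95% interval -0.67 to 0.12, adjusted p = 0.416), and BAD at -0.26 ± 0.17 (-0.58 to 0.07, adjusted p = 0.346) in the authors' deposited table. BAD is the BH3-only protein that calcineurin is known to dephosphorylate, which frees it from YWHA adaptors.

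BIK had next to no reads. Its mean level was 2.22, and its change of 0.38 ± 0.83 in the authors' deposited table had no adjusted p (unadjusted p = 0.65). That SE matches the largest of the table (0.833). SEs were no larger in genes with still fewer reads, and smaller in some (0.55 for CD3E at a mean level of 0.426), as they can be where fold changes are moderated towards 0. No direction can be read for BIK at this depth.

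**Figure D2:**
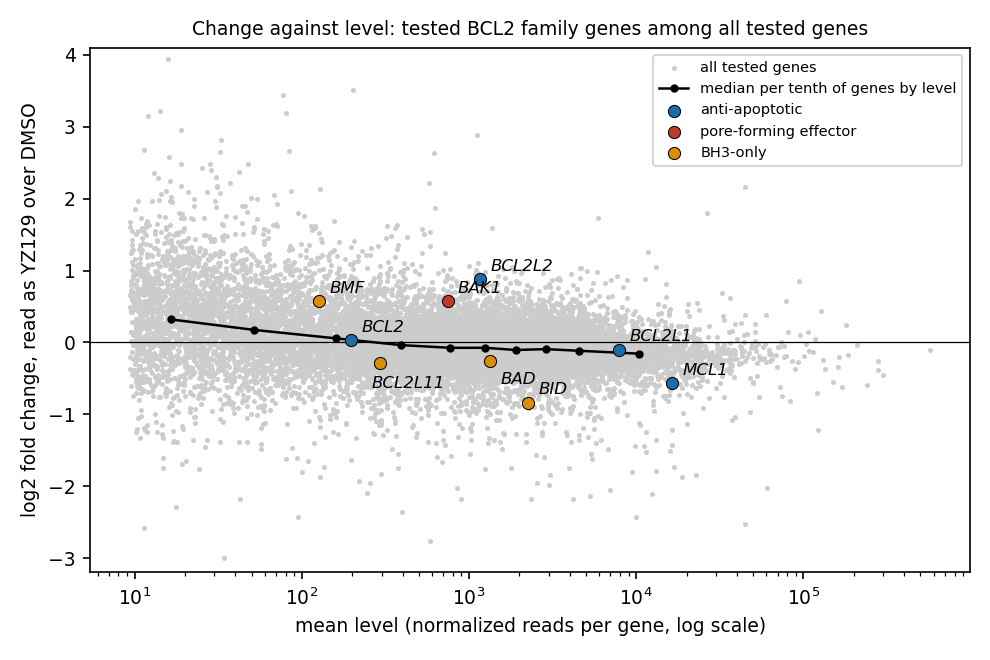
Log2 fold change (y axis, read as YZ129 over DMSO) against mean level in normalized reads (x axis, log scale) for all 14812 tested genes (grey) and the 9 tested BCL2 family genes; the black line joins the medians of level deciles. The line declines with level, MCL1 at a level of 16356 and BID lie below it, and BCL2L2 and BAK1 lie above it.

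The members were also compared pair by pair. Of the 36 pairs among the 9 tested members, 22 had a 95% interval of the difference that left out 0. The share of such pairs among all tested genes was not computed, and each member enters 8 pairs. Whether the members differ more than other genes do was thus not tested. BCL2L2 had such an interval with 6 of 8 others, all but BAK1 and BMF. BID differed from 7 of 8, all but MCL1, which exceeded it by 0.27 (95% interval -0.17 to 0.71). BAK1 and BMF had a difference of 0.00 (95% interval -0.61 to 0.62), and BCL2 differed from 3. These intervals carry no test, and neighbours in the order did not separate: BCL2L2 exceeded BAK1 by 0.31 (-0.13 to 0.75), BCL2 exceeded BCL2L1 by 0.12 (-0.40 to 0.65), BAD exceeded BCL2L11 by 0.02 (-0.49 to 0.53).

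Levels can be set against each other only per length. Divided by the exon length of each gene (GENCODE release 29, all exons of the basic transcripts), the mean level in the authors' deposited table was highest for MCL1, at 4004 normalized reads per kb, followed by BCL2L1 at 2771. BAD (1011) and BID (800) came next, then BAK1 (336) and BCL2L2 (324). The other four were far lower, BCL2L11 at 48.1, BMF at 25.6, BCL2 at 16.7 and BIK at 2.33 per kb. BCL2 has the longest exon total of the set, 11741 bases, and the share of it used in these cells is not known. The mean covers libraries of both groups and, as set out above, apparently more columns of counts than the libraries described. It has no spread, so whether close values such as those of BAK1 and BCL2L2 differ was not tested. The gene that rose most thus had a level per kb well below those of MCL1 and BCL2L1.

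**Figure D3:**
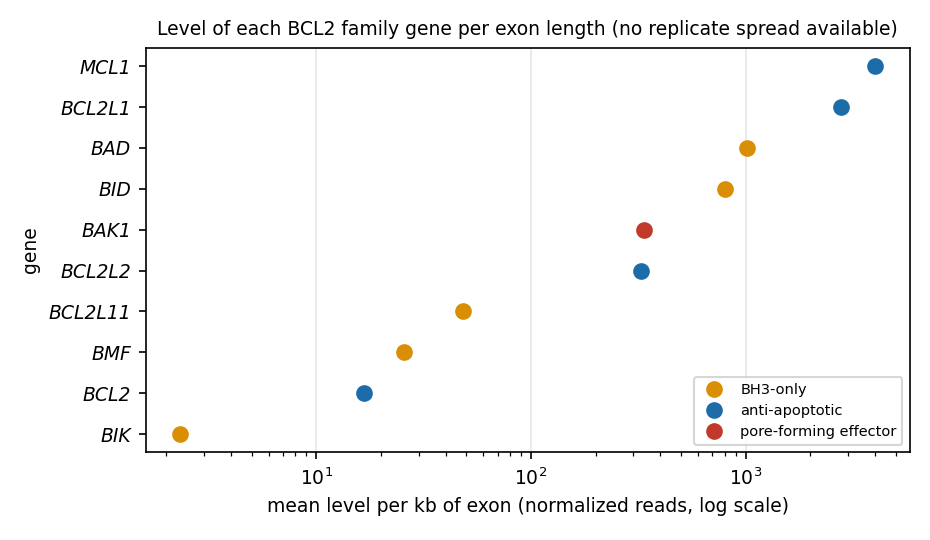
Mean level per kb of exon (x axis, normalized reads, log scale) of the 10 BCL2 family genes, coloured by role. Each point is 1 value over the authors' columns of counts, apparently more than the libraries described, with no spread. MCL1 (4004) and BCL2L1 (2771) stand at the top and BCL2 (16.7) and BIK (2.33) at the bottom.

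Promoter sequence is shown for BAK1 and BID, the called members whose start has an entry in the RefSeq promoter table (GRCh38.p14). The 250 bases before the start are given, for BID at the start listed first of 5. Capitals mark GGAAA, the core that NFAT factors bind, and GAANNTTC, a pair of heat shock element units, on either strand.
BAK1 (chr6:33580277-33580526, minus strand): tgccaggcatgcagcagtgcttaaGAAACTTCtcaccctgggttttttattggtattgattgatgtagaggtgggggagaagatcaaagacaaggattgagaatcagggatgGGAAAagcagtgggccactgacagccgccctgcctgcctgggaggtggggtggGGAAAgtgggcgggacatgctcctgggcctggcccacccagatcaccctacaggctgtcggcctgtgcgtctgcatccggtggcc
BID (chr22:17774470-17774719, minus strand): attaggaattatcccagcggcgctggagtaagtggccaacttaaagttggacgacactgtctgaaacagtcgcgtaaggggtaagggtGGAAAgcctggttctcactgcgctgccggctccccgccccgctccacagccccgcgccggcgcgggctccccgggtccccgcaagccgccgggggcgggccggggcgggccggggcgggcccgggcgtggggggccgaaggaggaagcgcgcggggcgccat
The BAK1 window held 2 matches to GGAAA and 1 to GAANNTTC, at -226 from the start, and none of them overlap. The BID window held 1 match to GGAAA and 0 to GAANNTTC, and its 5 starts held 0 to 2 matches to GGAAA. Of all windows of this length in the table, GGAAA occurred in 55.6% and GAANNTTC in 5.78% of 35116. BMF, not called, also held 1 match to GAANNTTC at 1 of its 2 starts. GGAAA occurred in uncalled members too: BCL2 held 2 matches and BAD 1 at each of 2 starts. BCL2L1 and BMF held 1 at 1 of 2 starts, and BCL2L11 held 0. Of the other motifs searched on both strands, GGGCGG (the GC box, in 42.6% of windows) had 2 matches in the BAK1 and 4 in the BID window, CCAAT (32%) had 1 and 0, and ACGTG (the HIF core, 18.5%) had 0 in both. At the other 4 BID starts GGGCGG had 0 to 4 matches, CCAAT had 0, and ACGTG had 2 overlapping matches, 1 on each strand, at 2 starts. These are matches of letters, not sites.

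Reads of overlapping genes could enter other members as well, since the sources used here do not say whether counting used strand. BAD shares 380 exonic bases (28.6% of its exon length) with GPR137 on the opposite strand, which stood at -0.36 ± 0.15 in the authors' deposited table (adjusted p = 0.0961). The antisense RNA ABALON covers 1224 bases (42.8%) of BCL2L1, MIR4435-2HG 727 bases (11.9%) of BCL2L11, and BMF-AS1 461 bases (9.38%) of BMF. BAK1 shares 91 bases (4.11%) with GGNBP1, whose mean level was 1.63 in the authors' deposited table.

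The other BCL2 family genes that were listed gave no call. The list is not complete. It left out BNIP3 (-2.11, mean level 12371) and BNIP3L (-1.24, mean level 11420), sometimes counted with the family, whose adjusted p is not given here. Of 11 listed, 8 were tested and 0 passed in the authors' table with DESeq2 columns, beside 12.9% of all tested genes. At an unadjusted p of 0.05 there were 3, where 24.9% of all genes passed, and at an adjusted p of 0.1 there were 2, both higher, where 17.4% passed. Their median was 0.31, beside -0.05 for all tested genes. The median of tested genes depended on level: 0.24 under 100, -0.04 from 100 to 1000 and -0.11 from 1000 upwards. The tested genes of the list ran from a level of 11.9 (HRK) to 4897 (BCL2L13). PMAIP1 (NOXA, which antagonizes MCL1) stood at 0.89 ± 0.43 (adjusted p = 0.161) and BCL2L13, a member in the mitochondrial outer membrane, at 0.10 ± 0.14 (adjusted p = 0.696) in the authors' deposited table. BBC3 (PUMA) at 0.62 ± 0.26 (adjusted p = 0.0995) and HRK at 1.69 ± 0.67 (adjusted p = 0.0749, mean level 11.9), singled out once their values were known, were the closest to passing in the authors' deposited table.

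Partners and regulators of BCL2 family proteins gave 5 calls among 31 tested, 1 higher and 4 lower, or 16.1% beside the 12.9% of all genes, with a median of -0.22. BAG3, a cochaperone that binds BCL2 and also one of the heat shock genes used to read the direction, stood at 0.99 ± 0.14 (adjusted p = 6.92e-10) in the authors' deposited table. ITPR1, the calcium channel of the endoplasmic reticulum that BCL2 binds, fell (-0.83 ± 0.16, adjusted p = 2.11e-05), as did YWHAB, an adaptor that holds phosphorylated BAD (-0.63 ± 0.14, adjusted p = 0.000321), in the authors' deposited table. RPS6KA1, a kinase known to phosphorylate BAD (-0.54 ± 0.17, adjusted p = 0.0125), and the outer membrane channel VDAC1 (-0.48 ± 0.14, adjusted p = 0.00877) also fell in the authors' deposited table. YWHAZ (-0.22 ± 0.17), YWHAE (-0.36 ± 0.15) and YWHAQ (-0.38 ± 0.16), further adaptors of the YWHA family and the most abundant of the list that did not pass, were negative in the authors' deposited table. YWHAG (0.08 ± 0.13) and YWHAH (-0.28 ± 0.14), singled out as the other YWHA genes tested, did not pass either. With changes centred on genes of like level VDAC1 no longer passed (adjusted p = 0.126). FBXW7, part of a ligase for MCL1, passed as a second rise under that centring (0.49, adjusted p = 0.022) and under centring on all genes (0.47, adjusted p = 0.0307).

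Genes that act after the outer membrane opens gave 2 falls and 0 rises among 14, or 14.3% beside the 12.9% of all genes, with a median of -0.06. DIABLO, which relieves the caspase inhibitor XIAP, fell (-0.54 ± 0.15, adjusted p = 0.00515), and so did the nuclease ENDOG (-0.58 ± 0.20, adjusted p = 0.0319), in the authors' deposited table. ENDOG no longer passed once changes were centred on the median of all tested genes (adjusted p = 0.0577), which left 1 fall. Cytochrome c (CYCS, -0.01 ± 0.45), XIAP (0.10 ± 0.23) and BIRC5 (-0.07 ± 0.14), the most abundant of the list that did not pass, lay near 0 in the authors' deposited table. Upstream of BID, 1 of 10 tested death receptor genes fell and 0 rose, 10% of the list, with a median of -0.05. The one was the adaptor FADD (-0.55 ± 0.14, adjusted p = 0.0023 in the authors' deposited table). TNFRSF10B, a receptor for TRAIL (0.23 ± 0.14), TNFRSF1A (-0.39 ± 0.15) and the caspase-8 inhibitor CFLAR (0.19 ± 0.13) in the authors' deposited table did not pass. TNFRSF10B passed once changes were centred on genes of like level (0.39, adjusted p = 0.0439). CASP8, the protease that cuts BID, singled out for that role, was at -0.14 ± 0.15 (adjusted p = 0.6) in the authors' deposited table.

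**Figure D4:**
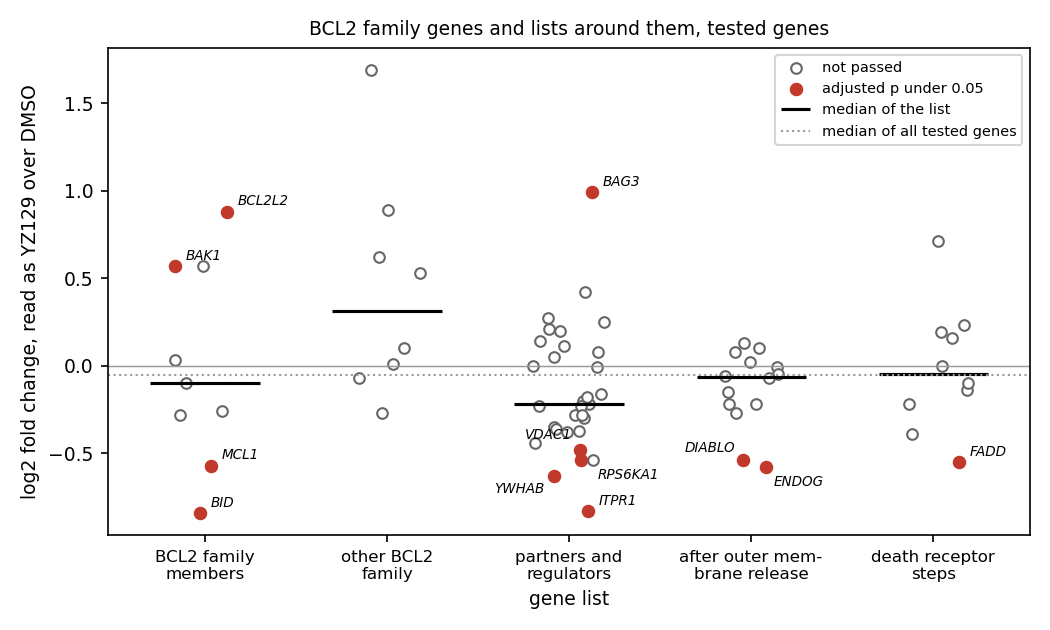
Log2 fold change (y axis, read as YZ129 over DMSO) of the tested genes in 5 lists: the BCL2 family members, other BCL2 family genes, partners and regulators, genes acting after the outer membrane opens, and death receptor steps. Filled points passed an adjusted p of 0.05, bars are list medians and the dotted line is the median of all tested genes (-0.05); the members split into BCL2L2 and BAK1 above and MCL1 and BID below.

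The label of the cells was checked on 10 astroglial and glioma markers. The mean levels used for this appear to cover more columns of counts than the libraries described. VIM and CD44 were abundant, with mean levels of 298885 and 134994, CHI3L1 was at 4151, GFAP at 52.2, and S100B (1.12) and SOX2 (0.851) had almost no reads in the authors' deposited table. Of 8 tested, SLC1A3, NES, VIM and CD44 fell and 0 rose, where 7.64% of all tested genes passed as lower and 5.24% as higher. Marker calls were not repeated with changes centred on genes of like level. Among 4 blood markers with a row, PTPRC (2.28) and CD3E (0.426) were near 0 in mean level in the authors' deposited table, while CD68 (12821) and LCP1 (1213) were not. The mean levels of 5 epithelial markers ran from 0.588 (KRT19) to 93.7 (KRT8) and those of 4 endothelial markers from 0.629 (CDH5) to 673 (KDR) in the authors' deposited table, so neither set was all near 0. In the authors' deposited table LCP1 rose (0.69 ± 0.15, adjusted p = 0.000163). Among 4 tested neuronal markers, TUBB3, SNAP25 and GAP43 fell and SYT1 did not pass. The part of these changes in the BCL2 family results was not tested.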

How the data were processed

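Poly(A)-selected RNA of U87 cells was sequenced in 2 YZ129 and 2 DMSO libraries, grouped by their titles. Build hg19, Cuffdiff, Cufflinks 2.2.1 and TopHat2 2.0.12 appear in the submitters' processing notes, with no role or order. The authors deposited 1 table with the columns of a DESeq2 result, per the file headers: a p-value, raw and adjusted, a Wald score, a log2 fold change, its SE, and a mean signal (reads scaled by size factor). Counter, annotation and DESeq2 version: not given in the sources used here. The deposited score equalled the log2 change over its SE, and the adjusted p-value a Benjamini-Hochberg adjustment over 14812 genes. The other 4937 (25.0%) had a mean level of at most 9.43 and no adjusted p.

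The authors' adjusted p under 0.05 was the call. Intervals of 95% are the value ± the normal quantile times the SE, and differences between genes take errors as independent. SEs reach at most 0.833 and are smaller in some of the lowest genes (0.55 for CD3E at a mean level of 0.426), as with fold changes moderated towards 0. Changes of low genes may thus be understated. In pathway lists of 2 to 32 genes the text names every gene that passed and up to 3 others of highest level, plus those it says were singled out; marker and heat shock lists are given by counts and examples. One listed gene, and counts that include it, are not reported here. Members, lists and the direction were chosen with earlier results of these data known. Recomputed adjustments and centring were tested on simulated data. Exon lengths, overlaps and coding sequence come from GENCODE release 29 (GRCh38), promoters from RefSeq (GRCh38.p14), and no coordinate was converted. Python 3.11.15, pandas 2.3.3 and SciPy 1.17.1 were used. Read totals were not analysed here, and no interval on counts is given.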

Additional observations from a re-analysis of the deposited data

How the results depend on the processing

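With calls at an adjusted p under 0.01, BCL2 family members gave 1 rise and 1 fall, BCL2L2 and BID, since BAK1 (adjusted p = 0.0103) and MCL1 (0.0109) lay just above. With a log2 change of at least 1 in size also required there were 0 rises and 0 falls. With changes centred on the median of the level decile there was 1 fall, as MCL1 at -0.41 had an adjusted p of 0.103, and the uncalled BCL2 (-0.03) and BCL2L1 (0.06) turned in sign; the cause was not tested. Calls at an adjusted p under 0.1, adjustment over every gene or over genes with a level of at least 100, and centring on the median of all genes left 2 rises and 2 falls. BCL2L2 and BID passed under every alternative except the size limit. No replicate could be left out and no filter on reads changed without values per library. No paired analysis was possible because the table's columns carry no replicate. Depth limits BIK, and BMF to an interval of 0.05 to 1.09.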

Other observations

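Several transcription factors known to act on BCL2 family genes were also measured. The count called in this list is not reported here, and 12.9% of all tested genes passed. Any link of these factors to the members was not tested. DDIT3 (CHOP), a stress factor known to induce BCL2L11 and repress BCL2, rose (0.89 ± 0.17, adjusted p = 7.57e-06 in the authors' deposited table). BCL2L11 (-0.28 ± 0.20) and BCL2 (0.03 ± 0.22) themselves did not pass. EGR1 fell (-1.35 ± 0.13, adjusted p = 9.05e-22), as did MYC (-0.61 ± 0.14, adjusted p = 0.000407) and E2F1 (-0.60 ± 0.14, adjusted p = 0.000498), in the authors' deposited table. SP1, which binds GC boxes, was also lower in the authors' deposited table (-0.53 ± 0.15, adjusted p = 0.00441). In the authors' deposited table, HIF1A (-0.14 ± 0.15), JUN (-0.21 ± 0.13) and ATF4 (0.25 ± 0.16) missed the threshold.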
